A study of Drosophila melanogaster with 6 samples.

Results

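The Drosophila melanogaster genome carries many genes for long noncoding RNAs that have an annotation number beginning with CR in place of a name. Of 2361 such genes in the gene tables of experiment 2, 66 reached a level of at least 1 RPKM (reads per kilobase of exon, scaled to library size) in at least 1 of the 3 libraries of that experiment, and these 66 RNAs are described here. They were chosen by their RPKM in experiment 2, so their levels in that experiment, and any ratio or fit that uses them, are a description with no test. The libraries were made by sequencing RNA immunoprecipitated from ovary, as a survey of noncoding RNAs held by chromatin regulators. The antibodies were anti-Lsd1, against a demethylase of histone H3 lysine 4, anti-Bre1, against a ubiquitin ligase of histone H2B, and IgG as the background control.

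All libraries came from wild-type Oregon-R flies with no transgene or treatment. Ovaries of about 200 females, taken at most 12 hours after eclosion, were pooled for each experiment, and 1 lysate served the 3 antibodies. The 2 experiments gave 6 libraries, 2 per antibody. The groups were therefore Lsd1, Bre1 and IgG, each with 1 library in experiment 1 and 1 in experiment 2. Experiment 1 was deposited as FPKM (the same measure for fragments) and experiment 2 as RPKM with read counts, so the experiment and the way of counting cannot be told apart. Exon reads outside ribosomal RNA in experiment 2 numbered 1619605 with Lsd1, 7447852 with Bre1 and 8739562 with IgG. In the Lsd1 library of experiment 2, 23.9% of these came from the 2 copies of 7SL, the signal recognition particle RNA, against 0.0395% with IgG.

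Some markers of the germline, of somatic ovary cells and of the muscle sheath reached a level of 1 in each of the 6 libraries. Of 10 germline markers, 4 reached 1 with Lsd1 in experiment 2, where 2 were at 0, and 5 with Bre1 in experiment 1. The other libraries had 9 or 10 of these at 1 or more. With Bre1 in experiment 1, 5 of 10 somatic ovary and 3 of 7 muscle sheath markers reached 1. In every other library at least 6 of 10 and 5 of 7 did so. The summed level of 10 germline markers was 377 and 25.2 with Lsd1, 26.3 and 221 with Bre1, and 231 and 613 with IgG, in experiments 1 and 2. No fat body or hemocyte marker reached 1 in any library. The testis list summed to at most 1.504 in any library, and 4 of 5 gut markers reached 1 with Lsd1 and with IgG in experiment 1. Ovary lysate mixes cell types, so a low level cannot be told apart from RNA present in few cells. The part of cell mixture in the results was not tested.

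Long noncoding RNAs are transcripts without a long reading frame. Some act on chromatin in cis or in trans, some are precursors from which microRNAs or small nucleolar RNAs are cut, and some are made on the strand opposite to a coding gene. Chromatin regulators of several kinds are known to bind RNA, which is the background to a survey of this type. For nearly all of the 66 RNAs no function is named in the tables used here.

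The label of long noncoding RNA was checked against the RefSeq gene table (Release 6 plus ISO1 MT), in which all 66 genes were found with the same start and end. It lists 48 of them as lncRNA and 16 as antisense RNA. CR43603, of 186 bases, is listed there as a small noncoding RNA, and CR43051 is now a protein-coding gene, CG43051. CR45923 has since been named dntRL. Exon length ran from 186 to 7596 bases with a median of 1133.5, against a median of 657 for all 2361 genes, and 23 of the 66 had 1 exon. The X chromosome held 20 of the 66 (30.3%), although 12.5% of all 2361 lie there.

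The level of 1 was reached with IgG alone by 47 RNAs, with Bre1 and IgG by 8, with all 3 antibodies by 5, with Lsd1 and IgG by 4, and with Lsd1 alone by 2. Thus 64 of the 66 qualified through the IgG library, against 11 through Lsd1 and 13 through Bre1. The selection therefore favours RNAs that were high in the control, which bears on every ratio below. For the 2 chosen through Lsd1 alone it favours Lsd1 instead. Just inside the threshold lay CR43051 and CR45953, with a highest level of 1.02 RPKM each. Just outside it were CR44382 at 0.989 and CR44030 at 0.987 RPKM.

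Most of these RNAs lie in or beside protein-coding genes. Of the 66, 53 overlapped the span of a coding gene, 10 lay within 1 kb of one, and 3 lay between 1 and 10 kb. Among the 53, 31 overlapped a coding gene of their own strand (9 of these also one of the opposite strand) and 22 only a gene of the opposite strand. A total of 36 lay wholly inside a coding gene. The tables give gene spans and not exons, so overlap with an exon or an intron of the host could not be separated. The library kit leaves reads without a strand, and how the authors' counting assigned reads of overlapping genes is not known, so counts of such RNAs are uncertain.

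The share of exon reads that the deposited counts call unique differed with the strand of the host. How a unique read was defined there is not known, so such a read need not belong to the noncoding RNA alone. Of the 20 RNAs wholly inside a coding gene of the same strand, 18 had no exon read counted as unique with IgG in experiment 2. Of the 16 inside a gene of the opposite strand only, 15 had every exon read counted as unique. All 13 RNAs that overlap no coding gene had unique reads, and for 12 of these every read was unique. The exception among the 13 was CR40469, with 335 unique of 700 reads. Over all positions, 39 RNAs had only unique reads with IgG and 19 had none.

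**Figure D1:**
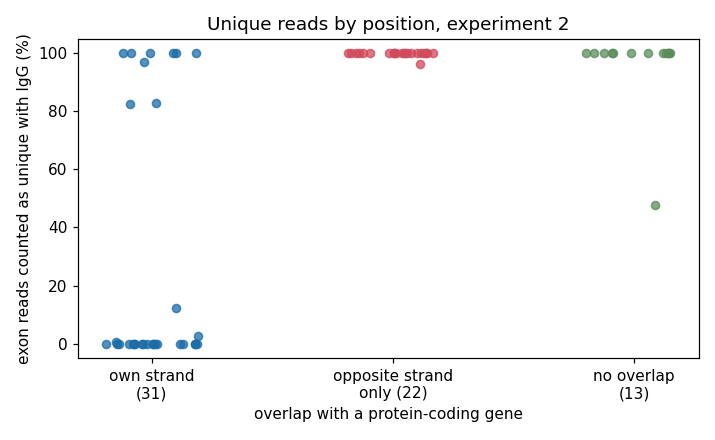
Share of exon reads counted as unique in the IgG library of experiment 2 (%), for each of the 66 RNAs (points, spread sideways for visibility) by its overlap with protein-coding genes. Of the 31 RNAs on a coding gene's own strand, 19 stand at 0, whereas none of the 22 on the opposite strand and none of the 13 without overlap does.

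Levels fell into a few abundant RNAs and many near the threshold. With Lsd1, Bre1 and IgG the median level was 1.25, 0.193 and 0.842 FPKM in experiment 1 (64 RNAs with an estimate), and 0, 0.454 and 1.57 RPKM in experiment 2 (66). The 66 RNAs took 0.139% of exon reads outside ribosomal RNA with Lsd1 (95% Clopper-Pearson interval 0.133 to 0.145), 0.203% with Bre1 (0.200 to 0.207) and 0.329% with IgG (0.325 to 0.333). Such intervals cover counting error only. Much of this came from CR42862, which held 13.1%, 68.4% and 57.7% of the reads of the 66 RNAs with Lsd1, Bre1 and IgG. Without CR42862 the shares were 0.121% with Lsd1, 0.0643% with Bre1 and 0.139% with IgG. In experiment 1 few fragments stood behind most values. Where whole fragments could be recovered, the median was 3 with Lsd1 (31 RNAs), 0 with Bre1 (36 RNAs) and 4 with IgG (30 RNAs).

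**Figure D2:**
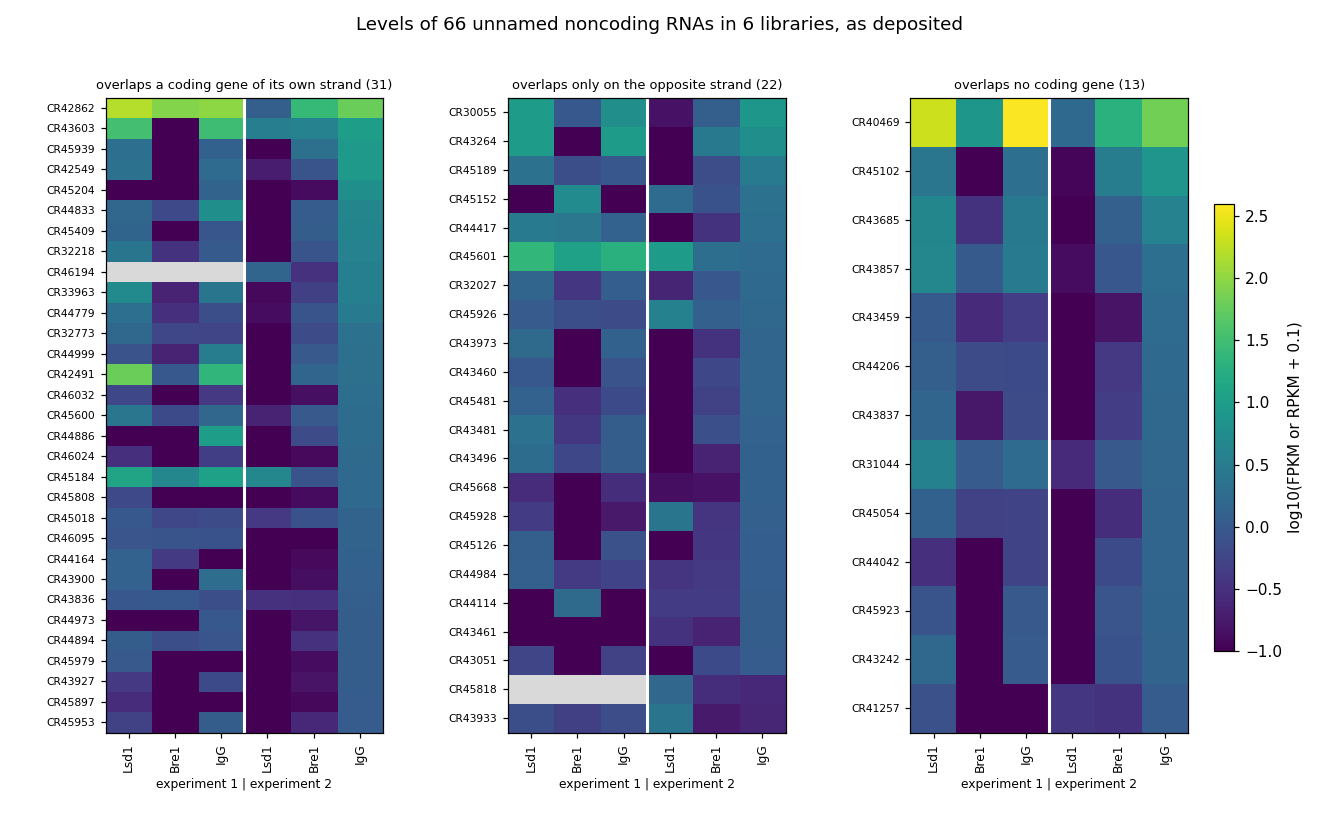
Levels of the 66 RNAs as deposited, on a scale of log10(FPKM or RPKM + 0.1), with 1 row per RNA and 1 column per library, in 3 blocks by overlap with coding genes and ordered by the IgG level of experiment 2. Grey cells are the 2 RNAs without an estimate in experiment 1. The Lsd1 column of experiment 2 is at 0 for 39 of the 66 RNAs, and CR42862 and CR40469 stand above the rest with IgG.

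CR42862 (chromosome 3L, 224106 to 230964, plus strand, build dm6) has 11 exons and shares 21.9% of its span with CG33229 on the same strand. Its level was 157 FPKM with Lsd1, 86.6 FPKM with Bre1 and 96.7 FPKM with IgG in experiment 1. In experiment 2 it was 1.13, 25.3 and 62.4 RPKM with Lsd1, Bre1 and IgG, from 295, 10369 and 16580 exon reads, of which 16110 with IgG were unique. As deposited, Lsd1 was thus the highest in experiment 1 and the lowest in experiment 2, while on scaled values Bre1 was the highest in experiment 1. Its log2 ratios over IgG, on scaled values plus 1, were 0.37 and -3.01 for Lsd1. For Bre1 they were 1.80 and -0.62, the first being -0.16 in the values as deposited. The host CG33229 had 0.35 and -2.69 with Lsd1, and -0.11 and -1.15 with Bre1.

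CR40469 (chromosome X, 122493 to 122706, plus strand) has 1 exon of 214 bases and lies 1664 bases from CG17636. Levels were 210, 7.91 and 376 FPKM in experiment 1 and 1.57, 19.9 and 67.5 RPKM in experiment 2, with Lsd1, Bre1 and IgG. IgG was the highest library in each experiment. The ratios were -1.16 and -2.74 with Lsd1, from 38 fragments against 76 and 16 reads against 700, and -3.54 and -1.06 with Bre1, from 1 fragment against 76 and 318 reads against 700. An RNA of this length is close to the size of a library fragment, so its FPKM rests on the effective length that the program assumed.

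CR45601 (chromosome X, 10054235 to 10055109, minus strand) lies opposite to and wholly inside Yp1, which encodes a yolk protein that follicle cells and fat body secrete. It had 23.9 FPKM with Lsd1, 11.4 FPKM with Bre1 and 19.3 FPKM with IgG in experiment 1, and 9.79, 1.93 and 1.70 RPKM in experiment 2. The 407 exon reads with Lsd1 in experiment 2 were 30.5 times those at IgG's share (95% interval 23.7 to 39.8), the 126 with Bre1 were 2.05 times (1.53 to 2.78), and all reads were counted as unique. Yp1 itself had ratios of -0.24 and 2.22 with Lsd1 and -1.75 and 0.67 with Bre1, beside -0.02 and 3.88, and 1.15 and 0.45, for CR45601. The Lsd1 ratio of -0.02 turns positive as deposited (0.30) and under quantile normalization (0.05), and the Bre1 ratio of 1.15 is -0.71 as deposited. Yp1 is far more abundant, with 4643, 8311 and 5296 reads with Lsd1, Bre1 and IgG, and its part in the reads of CR45601 was not tested.

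CR43603 (chromosome 3L, 5764861 to 5765046) lies inside CG10576 on the same strand. Levels were 33.5, 0 and 29.99 FPKM with Lsd1, Bre1 and IgG in experiment 1, from 2, 0 and 2 fragments, and 3.39, 3.89 and 10.1 RPKM in experiment 2. No read was unique, and 2 fragments cannot support a difference.

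CR45184 (chromosome 3L, 826720 to 830190) lies inside Sf3b3, which encodes a subunit of the U2 splicing particle, and spans 5 snoRNA genes. It had 12.5, 4.47 and 11.3 FPKM with Lsd1, Bre1 and IgG in experiment 1 and 4.59, 0.748 and 1.58 RPKM in experiment 2. The 578 reads with Lsd1 were 15.4 times those at IgG's share (95% interval 13.1 to 18.1), but none of the reads with any antibody was unique. Its Lsd1 ratio was -0.16 and 2.90, whereas that of Sf3b3 was 0.17 and -1.66, so in experiment 2 the RNA lay above IgG and its host below. The -0.16 is 0.13 in the values as deposited. The 5 snoRNA genes inside it had 0 reads in experiment 2.

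CR42491 (chromosome X, 762615 to 763810) lies inside RpL22, a ribosomal protein gene, together with snoRNA:Psi18S-531, a guide for a pseudouridine of ribosomal RNA. Levels were 61.5, 0.891 and 23.5 FPKM in experiment 1 and 0, 1.38 and 2.02 RPKM in experiment 2, with Lsd1, Bre1 and IgG. The Lsd1 ratio was 1.01 in experiment 1 and -1.01 in experiment 2, where 0 reads were counted against 73 with IgG. That is 4.51-fold lower by a limit of 3 counts, which takes the IgG count as exact. In the same library RpL22 had 25126 reads, against 6915 with IgG, and a ratio of 4.28.

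CR30055 (chromosome 2R, 12589239 to 12591395) lies opposite to Sin3A, which encodes the scaffold of a histone deacetylase complex. It had 9.45, 0.893 and 5.97 FPKM and then 0.0511, 1.11 and 8.004 RPKM with Lsd1, Bre1 and IgG, from 5, 171 and 798 unique reads. CR43264 (chromosome X, 5831898 to 5832215) lies opposite to CG15765, a gene with at most 1 read in any library of experiment 2. Its levels were 9.70, 0 and 9.46 FPKM and 0, 2.74 and 6.10 RPKM with Lsd1, Bre1 and IgG. Both RNAs thus had Lsd1 near IgG in experiment 1 and far below it in experiment 2.

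The comparison of Lsd1 with IgG asked which of these RNAs were more abundant with the antibody. Over the 64 RNAs with an estimate in experiment 1, the median log2 ratio on scaled values plus 1 was 0.11 in experiment 1 and -0.75 in experiment 2. The corresponding medians over all 6687 tested genes were 0.03 and -0.84. Experiment 1 is the experiment that the selection did not use, and there 40 RNAs (62.5%) lay above IgG, 21 below and 3 at the same value, beside 54.6% of tested genes above and 44.4% below. The filter on low values (a value of 1 or more in 2 or more libraries) was passed by 45 of the 64. It uses values of both experiments, so experiment 1 is not independent of the choice of the 45. Of the 45, 71.1% lay above IgG with Lsd1 in experiment 1, against the 62.5% of the 64. Counts and medians of the 45 in experiment 1, for Lsd1 and for Bre1, are therefore a description too. Of the Lsd1 signs of the 45 in experiment 1, 4 turn in the values as deposited and 6 under quantile normalization. In experiment 2, 4 and 12 turn. A log2 ratio of at least 1 in size was reached upward by 1 of the 45 in experiment 1 and 5 in experiment 2, beside 0.404% and 4.4% of tested genes. Downward it was reached by 4 and 18 of the 45, beside 0.523% and 42.7%. Scaling moves the median of all tested genes: the Lsd1 medians were 0.28 and -2.02 as deposited and 0.00 and 0.05 under quantile normalization. Less that median, the 45 RNAs lay at 0.14 and -0.00035 with the main scaling, 0.08 and 0.66 as deposited, and 0.12 and -0.08 under quantile normalization.

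In limma, with antibody and experiment as terms and Benjamini-Hochberg adjustment over all 6687 genes, none of the 45 RNAs passed an adjusted p under 0.05 for Lsd1 over IgG. The background was 0.015% of tested genes called higher and 0.015% called lower. An unadjusted p under 0.05 was found for 7 of the 45, against 2.35% of all tested genes, and because the selection used levels of experiment 2 nothing is read from that. The lowest limma adjusted p among the 45 was 0.283, for CR44886. Leaving out the Lsd1 library of experiment 1 gives 17 of the 45 called (5 higher, 12 lower) beside 27.0% of all tested genes, which then compares a single Lsd1 library. Without the Lsd1 library of experiment 2, 1 of the 45, CR44886, was called, beside 0.135% of all tested genes.

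The RNAs that stood above IgG with Lsd1 in both experiments were 3 of 45, or 6.67%, beside 6.43% of tested genes. These were CR45926, CR45928 and CR44984, all of which lie opposite to a coding gene. CR45926 (chromosome 2R, 23905334 to 23906700) lies inside Nap1, which encodes a histone chaperone. It had 0.971, 0.630 and 0.559 FPKM in experiment 1 and 3.68, 1.16 and 1.498 RPKM in experiment 2, with Lsd1, Bre1 and IgG, and Lsd1 ratios of 0.14 and 2.64. Nap1 itself had 1940, 8311 and 7233 reads with Lsd1, Bre1 and IgG in experiment 2, and Lsd1 ratios of -0.47 and 0.54. CR45928 (chromosome 2R, 23850330 to 23851500) lies opposite to ytr, and had 0.334, 0 and 0.0760 FPKM and 2.41, 0.263 and 1.18 RPKM, with Lsd1 ratios of 0.17 and 2.23. CR44984 (chromosome 2L, 4074279 to 4075952), opposite to the cell adhesion gene ed, had 1.17, 0.307 and 0.426 FPKM and 0.242, 0.309 and 1.08 RPKM, with ratios of 0.34 and 0.10. Its second ratio is -0.74 as deposited. The Lsd1 ratios were -0.12 and 0.03 for ytr and -0.02 and -1.71 for ed. The part of Nap1, ytr and ed in the reads of these RNAs was not tested. Only for CR44984 did both scaled Lsd1 values lie above both IgG values, 1 of 45 beside 2.15% of tested genes.

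Reads of experiment 2 placed 15 of the 66 RNAs above IgG's share with Lsd1 and 51 below it. Among the 45 tested RNAs these were 8 (17.8%) and 37 (82.2%), close to the 15.5% and 83.3% of all tested genes. The 15 comprised 9 of the 22 RNAs on the opposite strand of a coding gene only, 5 of the 31 on the same strand and 1 of the 13 without overlap. In experiment 1, 13 of the 15 had an estimate, with a median Lsd1 ratio of 0.00, 6 above 0 and 4 below. The same number, 15, lay above IgG's share when 7SL was left out of the library totals.

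The largest excess, chosen after its values were seen, was that of CR43933 (chromosome 3L, 21496393 to 21498830), which lies opposite to the nuclear receptor gene Hr78 and to Glg1. It had 140, 8 and 9 reads with Lsd1, Bre1 and IgG in experiment 2, so that Lsd1 was 83.9 times IgG's share (95% interval 43.0 to 187). In experiment 1 the levels were 0.631, 0.381 and 0.612 FPKM, with an Lsd1 ratio of -0.08. CR45818 (chromosome 3L, 1796854 to 1797272), opposite to the Hsp90 co-chaperone gene Cdc37 and also chosen after its values were seen, had 29, 6 and 3 reads. That is 52.2 times IgG's share with Lsd1, with a counting interval of 16.2 to 268, and experiment 1 has no joined estimate for it. Cdc37 had 426, 1441 and 1304 reads with Lsd1, Bre1 and IgG, and an Lsd1 ratio of 0.76 in experiment 2. Its part in the reads of CR45818 was not tested. CR43933 and CR45818 are the RNAs that reached 1 RPKM with Lsd1 alone. Their choice thus built in an Lsd1 level above IgG in experiment 2. Their ratios and intervals there are a description from which nothing is read.

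CR46194 (chromosome 2R, 12169558 to 12171706), chosen after its values were seen, lies inside Oda, the ornithine decarboxylase antizyme gene, and holds the microRNA genes mir-281-1 and mir-281-2. It had 143, 37 and 368 reads with Lsd1, Bre1 and IgG, which was 2.10 times IgG's share with Lsd1 and 0.118 times with Bre1. None of its reads was unique. Oda had 66, 1212 and 2742 reads in the same libraries, and thus lay below IgG's share with Lsd1 (ratio -2.33) where CR46194 lay above it. CR46194 also overlaps the coding gene SmD3 on the opposite strand. The part of either coding gene in its reads was not tested.

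**Figure D3:**
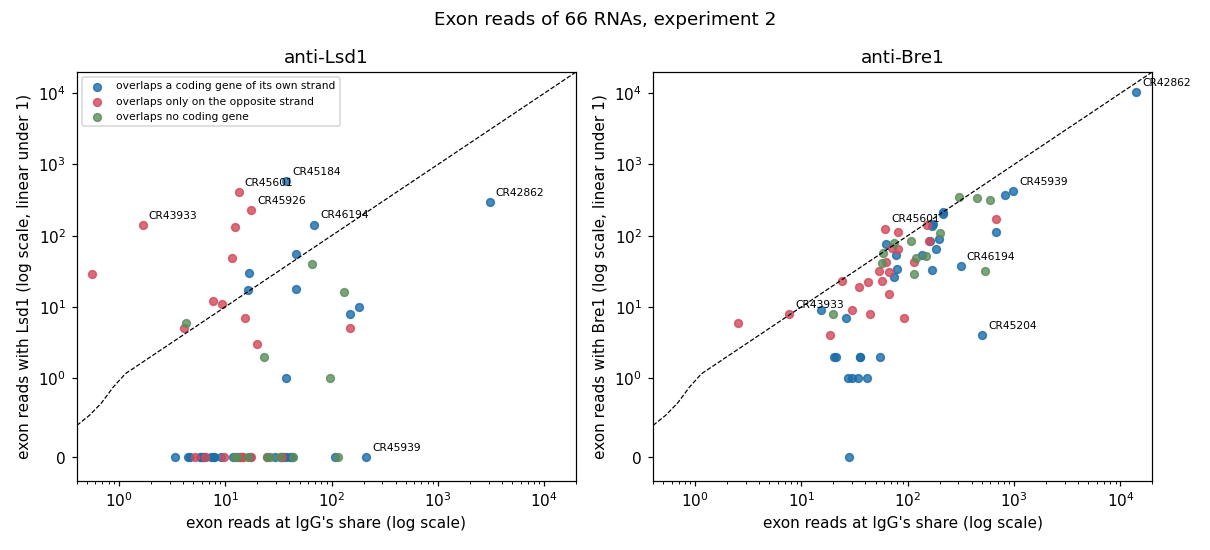
Exon reads of the 66 RNAs in experiment 2 with Lsd1 (left) and Bre1 (right) against the number expected at IgG's share of exon reads outside ribosomal RNA, on log axes that are linear under 1, with the dashed line marking equality. With Lsd1, 15 RNAs lie above the line and 39 lie at 0 reads, and with Bre1, 7 lie above it and 1 lies at 0.

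A total of 39 RNAs had 0 exon reads with Lsd1 in experiment 2, although they had 18 to 1150 reads with IgG (median 78). Together they would have had 1074 reads at IgG's share, or 817 with 7SL left out of the totals. By a limit of 3 counts per library they were at least 1.11- to 71.0-fold lower. With 7SL left out the limit was 0.846 for 1 of them, CR44886, and above 1 for 38. Among tested genes 17.0% had 0 reads with Lsd1, against 26 of the 45 tested RNAs. This share uses the level on which the RNAs were chosen. In experiment 1, 6 of 64 were listed at 0 with Lsd1 and 8 with IgG.

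The RNA with most IgG reads among these 39 was CR45939 (chromosome 3L, 18772086 to 18801312), inside ftz-f1, a nuclear receptor gene. It had 0, 423 and 1150 reads with Lsd1, Bre1 and IgG in experiment 2, of which 0 with IgG were unique although 93 crossed an exon junction. In experiment 1 its levels were 1.99, 0 and 1.22 FPKM, with Lsd1 above IgG. Its Lsd1 ratios were 0.19 and -2.40, beside 0.21 and -1.64 for ftz-f1.

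Below IgG with Lsd1 in both experiments were 8 of 45, or 17.8%, beside 34.7% of tested genes. In 5 of 45 both scaled Lsd1 values lay below both IgG values, beside 16.1% of tested genes. CR44833 (chromosome X, 4956646 to 5063868) overlaps ovo, a transcription factor gene of the female germline, on the opposite strand. It also overlaps a coding gene of its own strand. It had 1.45, 0.521 and 6.18 FPKM in experiment 1, from 4, 1 and 19 fragments, and 0, 1.02 and 4.30 RPKM in experiment 2, from 0, 34 and 93 unique reads. The Lsd1 ratios were -1.54 and -1.67 and the fitted change was -1.60 ± 0.64 (SE of the limma fit, n = 2 experiments). That SE comes mostly from the trend over all tested genes and not from the spread of these 2 ratios.

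CR45204 (chromosome X, 10794338 to 10796292) lies inside Imp, which encodes an RNA-binding protein, on the same strand. It was listed at 0 with Lsd1 and Bre1 and at 1.31 FPKM with IgG in experiment 1, and had 0, 4 and 583 reads with Lsd1, Bre1 and IgG in experiment 2. No read was unique. The Lsd1 and Bre1 libraries lay below IgG in each experiment, with ratios of -0.92 and -2.04 for Lsd1 and -0.92 and -2.01 for Bre1. Imp itself had 158, 7607 and 14354 reads with Lsd1, Bre1 and IgG, with ratios of 0.19 and -2.85 for Lsd1 and -0.07 and -0.79 for Bre1.

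CR44999 (chromosome X, 3373159 to 3522787), which overlaps the transcription factor gene Myc and holds 13 coding genes in whole, had 0.744, 0.127 and 3.29 FPKM and 0, 0.906 and 2.04 RPKM, with Lsd1 ratios of -1.21 and -1.02. CR44886 (chromosome X, 3313333 to 3348400) overlaps dnc, a cAMP phosphodiesterase gene, on the opposite strand, and also a coding gene of its own strand. It had 0, 0 and 10.2 FPKM with Lsd1, Bre1 and IgG in experiment 1, where the IgG value rested on 2 fragments, and 0, 9 and 18 reads in experiment 2. Its Lsd1 ratios were -2.98 and -0.91, and the fitted change was -1.95 ± 0.54 (SE of the limma fit, n = 2 experiments). Here too the SE comes mostly from all tested genes. CR44886 passed with a pseudocount of 5, at -0.74, and without the Lsd1 library of experiment 2, at -2.33, but 2 fragments and 18 reads do not allow a firm statement.

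Opposite signs with Lsd1 were found in 32 of the 45 tested RNAs (71.1%). The share with opposite signs over all tested genes was not counted. Such signs were clearest in CR42491, above, CR44164 and CR45979, of which CR45979 did not pass the filter. CR44164 (chromosome 2R, 6681796 to 6682394), inside CG9422, had 1.27, 0.303 and 0 FPKM from 6, 1 and 0 fragments, and 0, 0.0224 and 1.21 RPKM from 0, 1 and 35 reads. Its Lsd1 ratios were 0.75 and -0.69, the second 0.04 under quantile normalization. CR45979 (chromosome 3L, 6505569 to 6506393), inside the heparan sulfate enzyme gene sfl, had 0.916, 0 and 0 FPKM from 7, 0 and 0 fragments, and 0, 2 and 42 reads. CR44164 and CR45979 thus had fragments with Lsd1 and none with IgG in experiment 1, and reads with IgG and none with Lsd1 in experiment 2.

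**Figure D4:**
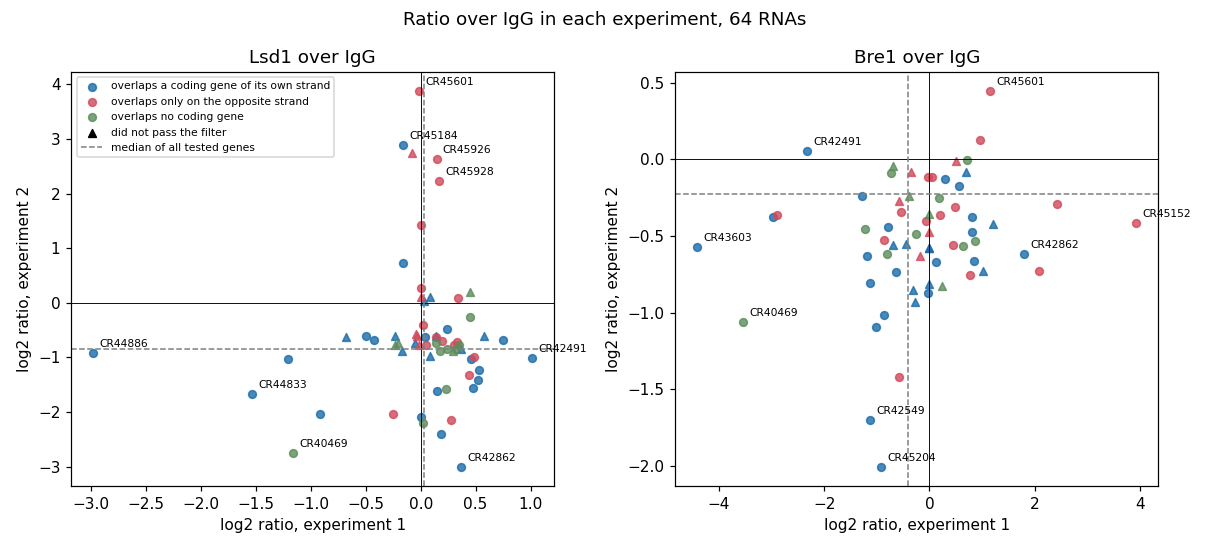
Log2 ratio over IgG in experiment 1 (x) and experiment 2 (y) on scaled values plus 1, for Lsd1 (left) and Bre1 (right), with 1 point for each of the 64 RNAs joined between experiments, coloured by overlap with coding genes. Triangles are the 19 RNAs that did not pass the filter, and dashed lines are medians of all 6687 tested genes. The Lsd1 points above 2 in experiment 2 sit near 0 in experiment 1, and nearly all Bre1 points lie below 0 in experiment 2.

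The comparison of Bre1 with IgG asked the same question for the other antibody. The median ratio over the 64 RNAs was -0.02 in experiment 1 and -0.48 in experiment 2, beside -0.40 and -0.22 over all tested genes. In experiment 1, 26 RNAs (40.6%) lay above IgG, 33 (51.6%) below and 5 at the same value, beside 30.4% of tested genes above and 68.5% below. Of the 45 tested RNAs, 14 change sign there in the values as deposited. In that experiment 27 of the 64 were listed at 0 FPKM with Bre1. In experiment 2, 61 of the 64 lay below IgG, or 95.3%, beside 73.4% of all tested genes, an experiment in which 64 of the 66 were chosen through IgG. By reads, 7 of the 66 lay above IgG's share with Bre1 and 59 below it. Among the 45 tested RNAs these were 4 (8.89%) and 41 (91.1%), beside 37.8% and 61.0% of all tested genes. Over the 66, the 95% counting interval excluded equality for 2 of the 7 above and 47 of the 59 below. The Bre1 medians over all tested genes were -1.34 and -0.74 as deposited and 0.06 and 0.01 under quantile normalization. Less that median, the 45 RNAs lay at 0.38 and -0.25 with the main scaling, 0.62 and -0.21 as deposited, and 0.43 and -0.24 under quantile normalization.

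None of the 45 RNAs passed for Bre1 over IgG in limma, beside 0.0% of tested genes called higher and 0.0299% called lower. An unadjusted p under 0.05 was found for 9 of the 45, against 3.89% of tested genes, from which again nothing is read. A log2 ratio of at least 1 upward was reached by 5 of the 45 in experiment 1 and 0 in experiment 2, beside 4.89% and 0.254% of tested genes, and downward by 11 and 6, beside 24.6% and 3.83%. Above IgG in both experiments were 2 of 45 (4.44%), beside 10% of tested genes, namely CR45926 and CR45601. The CR45926 ratios were 0.95 and 0.13, the second -0.21 as deposited, and its 113 reads were 1.40 times IgG's share (95% interval 1.05 to 1.85). Its host Nap1 had Bre1 ratios of -1.46 and 0.23. For CR45926 alone did both Bre1 values lie above both IgG values, 1 of 45 beside 4.74% of tested genes.

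Below IgG with Bre1 in both experiments were 23 of 45 (51.1%), beside 52.4% of tested genes. In 19 of 45 (42.2%) both Bre1 values lay below both IgG values, beside 30.8%. CR42549 (chromosome 3R, 9548104 to 9551806), inside mura on the same strand, had 2.20, 0 and 1.74 FPKM and 0.0855, 0.762 and 8.35 RPKM, from 8, 112 and 796 reads, of which 5 with IgG were unique. Its Bre1 ratios were -1.12 and -1.70, beside 0.87 and -0.36 for mura. CR33963 (chromosome X, 12659462 to 12660632), inside Tis11, which encodes a zinc finger protein of mRNA decay, had 5.20, 0.118 and 2.44 FPKM from 63, 1 and 33 fragments, and 1, 33 and 199 reads. The Bre1 ratios of CR33963 were -1.01 and -1.09, beside -0.09 and -0.61 for Tis11. CR45939 had Bre1 ratios of -0.87 and -1.02.

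CR45152 (chromosome 2R, 22415795 to 22416462), which was chosen after its values were seen, had the highest Bre1 ratio of experiment 1. It lies opposite to qkr58E-2, an RNA-binding protein gene, and was listed at 0 FPKM with Lsd1 and IgG and at 5.37 FPKM with Bre1. In experiment 2 it had 49, 32 and 63 unique reads with Lsd1, Bre1 and IgG. Bre1 was then 0.596 times IgG's share (95% interval 0.377 to 0.926) and Lsd1 4.20 times (2.83 to 6.19), so the antibody that stood out changed between experiments. Opposite signs with Bre1 were found in 20 of the 45 tested RNAs (44.4%), and the share over all tested genes was not counted. Besides CR45152 they included CR45189, opposite to the transcription factor gene zfh1, with 0.76 and -0.76, the first -0.19 as deposited. CR44417, opposite to Mapmodulin, had 2.08 and -0.73, from 14 fragments against 11 and 15 reads against 78. CR46095, inside mld, did not pass the filter and had 1.02 and -0.73, from 2 fragments against 3 and 0 reads against 33.

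The RNAs with no unique reads were compared with their hosts in experiment 2, with 1 library per antibody and so no test. There were 13 of them with 1 exon, all on the strand of the host. All 13 had fewer reads with Bre1 than at IgG's share, beside 61.0% of all tested genes and 91.1% of the 45 tested RNAs. Together they had 31, 174 and 1440 exon reads with Lsd1, Bre1 and IgG, where 267 and 1227 would have stood at IgG's share with Lsd1 and Bre1. The exon reads of their 13 hosts were 7487, 45435 and 50958, with 9443 and 43426 at IgG's share. The RNAs were chosen by their level in this experiment, mostly through IgG, and their hosts were not, so nothing is read from the RNAs lying below IgG's share where the hosts did not with Bre1. The hosts' intron reads were 38, 1476 and 14805 with Lsd1, Bre1 and IgG, with 2744 and 12617 at IgG's share. Introns made up 0.505% of the hosts' gene reads with Lsd1 (95% Clopper-Pearson interval 0.358 to 0.692), 3.15% with Bre1 (2.99 to 3.31) and 22.5% with IgG (22.2 to 22.8). The part of host introns in the reads of these 13 RNAs was not tested. CR45204 alone gave 583 of the 1440 reads with IgG, and without it the other 12 had 31, 170 and 857. The 6 RNAs with no unique read and more than 1 exon differed with Lsd1. They had 777, 825 and 2040 exon reads, with 378 and 1738 at IgG's share, and CR45184 gave 578 of the 777. With Lsd1 3 of the 6 lay below that share, and with Bre1 all 6, beside 83.3% and 61.0% of all tested genes. All 19 together had 808, 999 and 3480, with 645 and 2966 at IgG's share.

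Intron reads were a part of the signal of some of the RNAs. For all 66 RNAs introns made up 1.87% of gene reads with Lsd1, 8.14% with Bre1 and 37.3% with IgG, against 2.66%, 1.86% and 7.98% for all genes outside ribosomal RNA. Nearly all of these reads belonged to 10 RNAs with at least 100 intron reads with IgG, whose genes span 15457 to 223710 bases and of which 8 lie on the X chromosome. In these 10 the intron reads numbered 42 of 72 gene reads with Lsd1 (58.3%, 95% Clopper-Pearson interval 46.1 to 69.8), 1174 of 2370 with Bre1 (49.5%, 47.5 to 51.6) and 16775 of 19928 with IgG (84.2%, 83.7 to 84.7). At IgG's share 3109 intron reads would have stood with Lsd1, or 2366 with 7SL left out, and 14296 with Bre1. Other genes at least as long had introns at 11.6%, 5.32% and 25.7% of gene reads. Because the 10 were picked on intron reads with IgG, the height of IgG in them is a description from which nothing is read.

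The intron reads came from several RNAs and not from 1. CR44779 (chromosome X, 1047242 to 1088866) had 1, 199 and 4966 intron reads with Lsd1, Bre1 and IgG, and CR44833 had 4, 131 and 3216. CR43836, which holds mir-31b, had 11, 230 and 2116, and CR32773, which overlaps the transcription factor gene bi, had 12, 150 and 1754. Without CR44779 the intron share of the other 9 was 67.2%, 54.2% and 84.4%. Several of these genes span coding genes, so part of their intron reads can be reads of those genes, and that part was not tested. Of the 43 RNAs with more than 1 exon, 32 had at least 1 exon-exon read with IgG. Some of these, such as CR45939 and CR45184, had no unique read with IgG, and whether such exon-exon reads belong to the host was not tested.

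**Figure D5:**
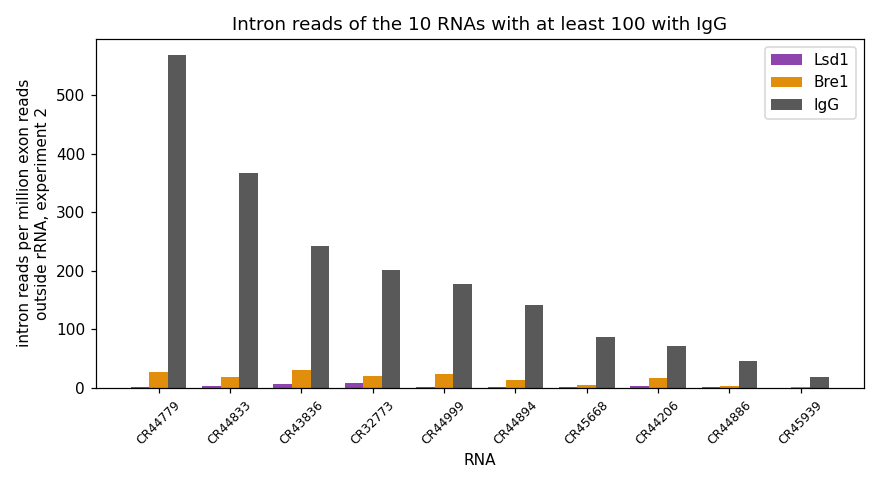
Intron reads in experiment 2, scaled as CPM to the exon reads outside ribosomal RNA of each library, for Lsd1, Bre1 and IgG (bars, from left to right), in each of the 10 RNAs with at least 100 intron reads with IgG, 1 library per antibody. The RNAs were picked on the IgG library, which favours a high IgG bar. The IgG bars run from 568 in CR44779, where Bre1 has 26.7 and Lsd1 0.617, to 18.3 in CR45939.

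RNAs that overlap small RNA genes form a group defined by position, and whether they are precursors was not tested. A total of 11 of the 66 overlapped a small RNA gene, of which 6 held a microRNA gene, 4 a snoRNA gene and 1 a transfer RNA gene. The 6 with microRNA genes were CR43857 (mir-275), CR46194 (mir-281-1 and mir-281-2), CR44206 (mir-184), CR43459 (mir-277 and mir-34), CR31044 (mir-279 and mir-996) and CR43836 (mir-31b). None of these microRNA genes had a read in experiment 2. CR31044 (chromosome 3R, 29214562 to 29219667) had 3.66, 0.975 and 1.73 FPKM and 0.165, 0.902 and 1.43 RPKM, with ratios of 0.45 and -0.25 for Lsd1 and 0.72 and -0.0039 for Bre1. CR43459 (chromosome 3R, 10093761 to 10101356) had 0.954, 0.175 and 0.351 FPKM and 0, 32 and 620 reads. CR44206 (chromosome 2R, 13329352 to 13344808) had 1.15, 0.569 and 0.553 FPKM and 0, 52 and 176 reads. Among these 3 the value as deposited was highest with Lsd1 in experiment 1 and lowest with Lsd1 in experiment 2. On scaled values, however, CR31044 and CR44206 were higher with Bre1 than with Lsd1 in experiment 1. The rest of the 6 did not all lie low with Lsd1 in experiment 2. CR46194 and CR43836 had 2.10 and 1.04 times the reads at IgG's share, and CR43857 had 0.0857 times. Of the snoRNA genes, snoRNA:Psi18S-531 had 5, 22 and 29 reads with Lsd1, Bre1 and IgG, none unique, and snoRNA:CG43051-a had 1 read, with Bre1.

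The ratios of the RNAs followed those of their hosts only loosely. Over the 30 joined RNAs on the strand of a coding gene, the ratio of an RNA and that of its main overlapping gene correlated at -0.02 and 0.06 with Lsd1 and at 0.21 and 0.31 with Bre1, in experiments 1 and 2. Over the RNAs on the opposite strand only, the correlations were 0.11 (21 RNAs) and 0.56 (21) with Lsd1 and 0.11 (20) and 0.31 (21) with Bre1. The main overlapping gene was that of the longest overlap, whatever its strand. RNAs without overlap were set beside their nearest coding gene. There the correlations were -0.12 (12 RNAs) and 0.18 (13) with Lsd1, and 0.01 (12) and -0.02 (13) with Bre1. The points share libraries and, where genes overlap, reads, so these values are a description only.

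A list of noncoding RNAs that have a name was set beside them. Of its 24 genes found in these data, 14 were tested, and none of the 14 passed in limma for Lsd1 or for Bre1. Their median Lsd1 ratios were -0.20 and -1.21 and their Bre1 ratios -0.26 and -0.50, in experiments 1 and 2. The flam RNA, a precursor of piRNAs in follicle cells, had 1.37, 0 and 1.498 FPKM and 0, 0.252 and 1.28 RPKM with Lsd1, Bre1 and IgG. The snoRNA host Uhg2 had 11.9, 4.46 and 11.1 FPKM and 0, 5.37 and 15.7 RPKM. Other listed RNAs lay far above IgG with Lsd1 in experiment 2. The ratios there were 9.26 and 9.21 for the 2 copies of 7SL, 5.10 for RNaseP:RNA, 4.60 for RNaseMRP:RNA and 3.63 for snRNA:7SK, all structured RNAs of ribonucleoproteins, beside -0.38 and -0.38, -0.20, 0.37 and 0.61 in experiment 1. The list thus held RNAs on both sides of IgG in experiment 2.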

How the data were processed

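Members, lists and the rule for named genes were chosen with earlier results of these data known. Per the file headers, the authors deposited Cufflinks FPKM per transcript for experiment 1, summed here per gene, and gene tables of RPKM and read counts for experiment 2. Named in the submitters' processing notes, without roles, are Cufflinks, SAMtools 0.1.18.0, Bowtie2 2.0.6.0, TopHat and dm6. For experiment 2 the sources used here do not give the program. Of 66 RNAs, 64 were joined to experiment 1 (17101 genes joined in all, 17021 by identifier and 80 by symbol), and experiment 1 gave no estimate to join for CR46194 and CR45818.

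Scaling used each library's median ratio over 1028 genes of at least 1 in all 6 libraries. Ratios are differences of log2(scaled value + 1), so changes of low genes are understated. Genes of at least 1 in at least 2 libraries were tested (6687, of which 45 are RNAs described here). All 6 libraries entered 1 limma 3.58.1 fit (R 4.3.3) of antibody plus experiment, with a mean-variance trend, Benjamini-Hochberg adjustment, and 2 residual and 119 prior degrees of freedom. It was tested on simulated data. The experiment term takes out the difference between the 2 lysates. What remains is how far antibody differences disagree between experiments, part of which may be technical. Given the 2 residual and 119 prior degrees of freedom, p-values and SEs draw this spread mostly from the trend over all tested genes. The experiment was the block because the labels say a lysate was shared. Deviations from antibody means correlated at 0.47 (Lsd1 with IgG), 0.51 (Bre1 with IgG) and 0.11 (Lsd1 with Bre1), to which the different quantification also adds.

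Reads at IgG's share are IgG exon reads times the ratio of exon reads outside ribosomal RNA, and intervals of such ratios are exact conditional binomial intervals. Fragments of experiment 1 were recovered for genes of 1 transcript from the Cufflinks confidence limits and used where whole within 0.05 (83.7% of such genes with Lsd1, 80.8% with Bre1, 82.9% with IgG). Values under 1e-06 FPKM are called listed at 0. A limit of 3 counts was used against a count of 0, with the IgG count taken as exact.

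Named RNAs were the 8 with the highest mean level, up to 5 per antibody and direction with the same sign in both experiments, up to 3 per antibody with opposite signs, those just inside and outside the threshold, and their overlapping or nearest coding genes. Alternatives were a pseudocount of 0.1 or 5, a minimum of 5 or none, quantile normalization or deposited values, the fit without replicate block or trend, each library left out, only RNAs that overlap no coding gene, and a level of 1 in all 3 libraries. Values with 7SL left out of the totals, and those without CR42862, CR45204 or CR44779, were added after seeing the data. Sequences are not printed, since no table of them was used here.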

Additional observations from a re-analysis of the deposited data

How the results depend on the processing

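Counts of called genes depended on the settings. For Lsd1 over IgG 2 of 6687 genes passed, against 0 without the replicate block, with a pseudocount of 0.1, with no filter, in values as deposited, under quantile normalization and without the trend, 15 with a pseudocount of 5, and 0 to 1805 with each library left out. For Bre1 over IgG 2 passed, against 0 in the same 6 settings, 1 with a pseudocount of 5, 5 with a minimum of 5, and 0 to 44 with each library left out. Of the RNAs described, 17 of 45 passed for Lsd1 without Lsd1 replicate 1, beside 27.0% of all tested genes, 4 for Bre1 without Lsd1 replicate 2, beside 0.643%, 2 for Bre1 without Bre1 replicate 2, beside 0.658%, and CR44886 for Lsd1 without Lsd1 replicate 2 and with a pseudocount of 5. The lone library is then assumed to vary like the others.

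Median ratios of the 45 RNAs were 0.17 and -0.84 for Lsd1 and -0.02 and -0.48 for Bre1. The Lsd1 median of experiment 2 was -3.01 with a pseudocount of 0.1 and -0.027 under quantile normalization. The Bre1 median of experiment 2 was -1.02 with a pseudocount of 0.1, -0.14 with 5 and -0.95 as deposited. That of experiment 1 was -1.46 with a minimum of 5, -0.72 as deposited and 0.49 under quantile normalization. A level of 1 in all 3 libraries leaves 5 of the 66 RNAs.

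Of 33 fitted changes under all alternatives, 409 of 445 values kept their direction and 36 turned, for which the cause was not tested. As deposited, the turned Bre1 changes were -0.71 for CR42862, -0.30 for CR45601, -0.87 for CR45184, -0.074 for CR45926, -0.75 for CR45189 and -0.29 for CR44417, and the turned Lsd1 changes -0.59 for CR43603 and -0.067 for CR44984. The Lsd1 change of CR42491, -0.00014, was 0.30 with a pseudocount of 5 and 0.37 under quantile normalization, and the Bre1 change of CR45189, 0.0027, was -0.039 with a pseudocount of 0.1. With each library left out, Lsd1 changes ran from -2.77 to 0.13 for CR42862, -0.19 to 4.06 for CR45601, -0.89 to 1.47 for CR43603, -0.35 to 3.08 for CR45184, -1.61 to 1.61 for CR42491, -1.94 to 0.064 for CR30055, -2.66 to 0.38 for CR43264, -0.062 to 2.84 for CR45926, -0.043 to 0.48 for CR44984 and -0.71 to 0.77 for CR44164. Bre1 changes ran from -0.86 to 2.04 for CR42862, -0.53 to 2.12 for CR45601, -0.94 to 1.33 for CR45184, -2.84 to 0.56 for CR42491, -3.33 to 0.085 for CR43264, -0.49 to 1.58 for CR45926, -0.82 to 0.82 for CR45189 and -0.40 to 1.75 for CR44417. Of the libraries of experiment 2, Lsd1 had the fewest exon reads outside ribosomal RNA, 1619605, which limits what could be seen of low RNAs there.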

Other observations

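A threshold on experiment 1 would have chosen other RNAs. In experiment 1, 149 unnamed noncoding RNA genes reached 1 FPKM in at least 1 library, and 43 of them are among the 66, which is 28.9% of the 149 and 67.2% of the 64 joined RNAs. In all 3 libraries of experiment 1 the level of 1 was reached by 15, of which 5 are among the 66. The other 10 stayed under 1 RPKM in every library of experiment 2. CR45969 had 3.44 FPKM with Lsd1, 8.20 with Bre1 and 5.12 with IgG in experiment 1, but 0, 4 and 3 reads in experiment 2. CR44404 had 7.50, 5.37 and 3.35 FPKM and no read in experiment 2. CR44382, which lies just outside the threshold on the X chromosome, had 3.02, 6.73 and 3.93 FPKM and 9, 29 and 23 reads. CR43463 had 1.74, 1.30 and 1.51 FPKM and 36, 123 and 60 reads, a read number in the range of the 66. CR45969 and CR44404 have 295 and 228 bases of exon.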
